A study of Mus musculus with 12 samples.

Results

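The transcripts described here belong to 10 genes of the microtubule: the alpha-tubulin genes Tuba1a, Tuba1b, Tuba1c, Tuba4a and Tuba8, the gamma-tubulin gene Tubg1, and the genes of the microtubule-associated proteins Stmn1, Map4, Mapt and Map1b. They were taken by gene symbol from a count table of 55421 mouse genes, and all 10 were among the 18108 genes that had enough counts to be tested. The table holds 12 RNA-seq libraries of cultured MOC2 cells, which come from a squamous cell carcinoma of the mouse mouth. Paclitaxel-treated cells received 600 nM of the drug for 48 hours, a treatment meant to make them senescent, and control cells received DMSO. The study asked what extracellular vesicles (EVs) of senescent cells do, and it compared the derivative MOC2-25, titled EV-Proficient, with the derivative MOC2-27, titled EV-Deficient. The 4 groups, each of 3 libraries, were therefore EV-proficient with DMSO, EV-proficient with paclitaxel, EV-deficient with DMSO and EV-deficient with paclitaxel. The labels do not name the gene through which vesicle release was blocked. Each EV label stands for 1 derivative line, so a difference between EV labels cannot be told apart from any other difference between these lines. The labels also do not say that the replicates were separate cultures, and the p-values then measure only the spread between these libraries, which may be technical.

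Microtubules are hollow polymers of alpha- and beta-tubulin dimers, and gamma-tubulin, in ring complexes at the centrosome, starts new ones. Paclitaxel binds beta-tubulin in the polymer, stabilises it and lowers the pool of free dimers, whereas stathmin, the protein of Stmn1, holds free dimers and favours disassembly. MAP4, tau (Mapt) and MAP1B bind along the microtubule wall; MAP4 is the widely expressed member, and tau and MAP1B are best known from neurons. Cells also adjust the stability of tubulin mRNA to the amount of free dimer: the adaptor TTC5 reads the first residues of a nascent alpha- or beta-tubulin as it leaves the ribosome and, through SCAPER and the CCR4-NOT complex, leads to decay of the mRNA being translated.

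The start of each alpha-tubulin reading frame is shown because this is the stretch through which that feedback works, and that of Tubg1, a gamma-tubulin, for contrast. Each line gives the first 36 bases of the coding sequence, 5′ to 3′, from the GENCODE M21 transcript (build GRCm38), with the first 4 codons in capitals.
Tuba1a: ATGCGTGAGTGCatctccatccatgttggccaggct
Tuba1b: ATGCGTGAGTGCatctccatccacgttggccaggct
Tuba1c: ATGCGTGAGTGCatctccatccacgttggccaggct
Tuba4a: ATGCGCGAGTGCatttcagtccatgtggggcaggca
Tuba8: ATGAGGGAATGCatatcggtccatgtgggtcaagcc
Tubg1: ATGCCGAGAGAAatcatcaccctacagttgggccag
Across these 36 bases, Tuba1b and Tuba1c each differed from Tuba1a at 1 position, Tuba4a at 7, Tuba8 at 10 and Tubg1 at 25. Within the first 12 bases the 3 Tuba1 genes were identical. Counting from 1 at the A of the start codon, with the Tuba1a base first, Tuba4a differed there by the single substitution T6C. These are counts of bases, not of residues. The first 4 codons encode Met-Arg-Glu-Cys in every alpha-tubulin line, Tuba4a and Tuba8 included, and other residues after Met in Tubg1.

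Tuba1b (chr15:98931425-98934565, minus strand), Tuba1a (chr15:98949837-98953703, minus strand) and Tuba1c (chr15:99029891-99038110, plus strand) are neighbours, with gaps of 15271 and 76187 bases between them. Tuba4a lies at chr1:75214228-75219865 on the minus strand, Tuba8 at chr6:121210696-121226854 on the plus strand and Tubg1 at chr11:101119938-101126419 on the plus strand. Stmn1 is at chr4:134468320-134473843, Map4 at chr9:109931460-110083955 and Mapt at chr11:104231390-104332090, all on the plus strand, and Map1b at chr13:99421446-99516540 on the minus strand. The coding sequence of Tuba1a was 98.3% identical to that of Tuba1b, 97.1% to that of Tuba1c, 84.7% to that of Tuba4a, 78.8% to that of Tuba8 and 49.6% to that of Tubg1. Of all 50-base windows in the main transcript, 72.9% in Tuba1a, 73.8% in Tuba1b and 61.0% in Tuba1c occurred unchanged in a transcript of another gene. For Tuba1a the leading partners were Tuba1c (46.9% of windows) and Gm17383 (46.6%), and for Tuba1b they were Tuba1c (59.3%) and Gm14150 (48.1%). For Tuba1c they were Tuba1b (52.0%) and Tuba1a (42.5%). The split of counts among these 3 genes is therefore uncertain wherever a read carried no gene-specific base, and their summed counts are given beside the single genes. The sum does not cover reads shared with genes outside these 3. The shared windows made up 36.5% in Stmn1, mostly with Gm11223, and 14.1% in Tubg1, mostly with Tubg2. They made up 1.11% in Tuba4a, 0.181% in Tuba8 and 0% in Map4, Mapt and Map1b. Tuba4a overlaps Stk16 on the opposite strand over 1379 bases, and Stk16 itself had 973 to 3707 counts per library. Whether counting used the strand is not given in the sources used here.

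The upstream sequences of the Tuba1 neighbours are shown because genes with nearly one coding sequence gave different patterns across the groups below. Each line is the 250 bases before the RefSeq start (build GRCm38.p6), 5′ to 3′ on the gene's strand, with matches to CCAAT or GGGCGG, on either strand, in capitals. The windows are chr15:98953502-98953751 for Tuba1a, chr15:98934391-98934640 for Tuba1b and chr15:99029641-99029890 for Tuba1c.
Tuba1a: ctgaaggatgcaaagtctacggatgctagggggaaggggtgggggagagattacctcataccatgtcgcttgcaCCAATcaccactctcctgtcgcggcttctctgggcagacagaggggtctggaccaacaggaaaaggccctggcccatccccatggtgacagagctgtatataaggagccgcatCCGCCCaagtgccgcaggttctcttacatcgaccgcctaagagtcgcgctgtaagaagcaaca
Tuba1b: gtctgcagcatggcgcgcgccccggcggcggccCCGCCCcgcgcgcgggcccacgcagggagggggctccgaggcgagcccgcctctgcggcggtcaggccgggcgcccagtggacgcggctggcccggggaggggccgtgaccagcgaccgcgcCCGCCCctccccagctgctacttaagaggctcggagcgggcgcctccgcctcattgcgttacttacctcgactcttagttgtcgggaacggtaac
Tuba1c: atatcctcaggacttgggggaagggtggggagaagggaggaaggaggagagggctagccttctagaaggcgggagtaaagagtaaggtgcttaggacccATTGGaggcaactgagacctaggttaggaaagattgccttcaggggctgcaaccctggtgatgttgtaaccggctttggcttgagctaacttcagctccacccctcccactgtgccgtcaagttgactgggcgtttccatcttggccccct
Tuba1a held CCAAT at position -176 and the reverse complement of GGGCGG at -63, Tuba1b held the reverse complement of GGGCGG at -217 and -95, and Tuba1c held the reverse complement of CCAAT at -151. Of 32851 RefSeq promoters of 300 bases, 37.4% held CCAAT and 35.7% held GGGCGG on either strand. TTTGAA (in 17.9% of promoters), GCGGGAA (4.60%) and TATAAA (13.6%) were searched in the same way and had no match in these 3 windows. The GENCODE starts of Tuba1a (98953703) and Tuba1b (98934565) fall inside their windows, so RefSeq and GENCODE disagree on these starts. Both Tuba1a matches and the Tuba1b match at -95 lie within the gene as GENCODE places it. The Tuba1c window ends just before the GENCODE start. Which start these cells use was not tested. The matches are a description of letters, not of binding. The promoter table held 7 of the 10 genes; Tubg1, Stmn1 and Mapt were the others.

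Libraries had 23263472 to 62955757 counts, of which the 10 genes took 0.186% to 0.299%. Levels are given as CPM, the usual normalised read count over the TMM-scaled library size, or as CPM per kilobase (kb) of merged exon where genes are compared with each other. Of the cell type markers, the 11 epithelial and squamous genes summed to 3411 to 6793 CPM per library, led by Krt8 and Krt18, although Krt5 and Trp63 had group means of at most 0.142 CPM. The fibroblast list stayed at or below 8.99 CPM, the endothelial list at or below 4.41 CPM and the immune list between 7.38 and 46.9 CPM, nearly all of it Cd68 and Csf1r. The neuronal list reached 25.0 to 74.4 CPM per library, mostly from Tubb3, with Rbfox3 and Dcx at 0 in the EV-proficient DMSO libraries. The epithelial sum was lower with paclitaxel, at 3954 to 4352 against 5614 to 6081 CPM with the EV-proficient label and 3411 to 3530 against 6263 to 6793 CPM with the EV-deficient label, and of its 9 tested genes 6 and 8 were called lower and 2 and 1 higher. Epcam, an epithelial adhesion protein, was called higher under both labels (log2 fold changes 1.00 and 0.29). The fibroblast sum was 5.58 to 6.86 with paclitaxel against 1.68 to 2.58 CPM with DMSO, and 7.12 to 8.99 against 2.84 to 3.596 CPM, with 2 and 3 of 6 tested genes called higher and none lower. The endothelial sum was 2.75 to 3.06 against 2.39 to 2.60 CPM, and 3.30 to 4.41 against 1.77 to 2.52 CPM, with 1 and 2 of 3 tested genes called higher and none lower. The neuronal sum was 25.0 to 30.02 against 47.2 to 54.9 CPM, and 32.7 to 36.8 against 68.9 to 74.4 CPM, which was mainly the fall of Tubb3 (means of 48.2 CPM with DMSO and 24.2 CPM with paclitaxel, and of 69.4 and 25.5 CPM). Of the 5 tested neuronal genes, 2 were called higher and 2 lower with the EV-proficient label, and 3 higher and 1 lower with the EV-deficient label. The immune sum was lowest in EV-proficient DMSO (7.38 to 8.52 CPM) and reached 39.9 to 44.7 CPM in EV-proficient paclitaxel, 20.9 to 21.6 CPM in EV-deficient DMSO and 26.4 to 46.9 CPM in EV-deficient paclitaxel libraries, with Cd3e at or near 0. All 3 tested immune genes were called higher with the EV-proficient label, whereas with the EV-deficient label Cd68 was called higher (1.92), Csf1r lower (-1.22) and Ptprc neither (-0.21). Over all genes tested, 27.1% were called lower and 31.1% higher under paclitaxel with the EV-proficient label, and 30.5% and 32.4% with the EV-deficient label. The part of these marker lists in the results below was not tested. In bulk RNA, fewer cells of a kind and less RNA per cell cannot be told apart.

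The first principal component of all tested genes, with 54.1% of the variance, set all DMSO libraries (64.1 to 69.5) apart from all paclitaxel libraries (-89.3 to -51.3). Beyond this split by treatment, libraries of one EV label did not stand together. A row that the authors added to the table for dngfr, a sequence whose role the labels do not state, was at 5.73 to 12.2 CPM in the EV-proficient DMSO libraries and 2.47 to 3.76 CPM in the EV-proficient paclitaxel libraries. In the libraries labelled EV-deficient the order was the other way round, 1.89 to 2.54 CPM with DMSO and 9.63 to 12.4 CPM with paclitaxel. The second principal component of all tested genes, with 16.4% of the variance, likewise put EV-proficient DMSO with EV-deficient paclitaxel (27.2 to 43.5) and EV-proficient paclitaxel with EV-deficient DMSO (-64.6 to -20.5). Of the 18108 genes, 5955 (32.9%) had an EV-label difference of the same sign under both treatments. Of the 2834 genes called under both, 2722 (96.0%) had opposite signs. Whether libraries of one treatment carry each other's EV label was not tested. Directions that rest on EV labels are therefore given for the libraries as labelled, beside 2 contrasts across the diagonal (EV-deficient paclitaxel against EV-proficient DMSO, and EV-proficient paclitaxel against EV-deficient DMSO) and the paclitaxel effect averaged over both labels, which does not depend on the EV labels.

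Under paclitaxel the abundant alpha-tubulin mRNAs other than Tuba1a and gamma-tubulin mRNA were lower than with DMSO under both EV labels. Stathmin mRNA was slightly lower under both, with calls that depended on the setting. Tuba1a and Map4 fell in the libraries labelled EV-proficient and rose in those labelled EV-deficient. Tuba8 did the reverse. Map1b fell in the libraries labelled EV-proficient and was not called in those labelled EV-deficient, and the difference between the labels was called. A gene was called when its edgeR quasi-likelihood p, adjusted over all genes tested by Benjamini-Hochberg, was under 0.05. In the libraries labelled EV-proficient 9 of the 10 genes were called, where 58.2% of all genes tested were: 8 lower (background 27.1%) and 1 higher (background 31.1%). In those labelled EV-deficient 9 were called as well, where 62.9% of all genes tested were: 6 lower (background 30.5%) and 3 higher (background 32.4%). The median log2 fold change over the 10 genes was -0.43 and -0.33 respectively, against 0.05 and 0.07 over all genes tested. Upper-quartile scaling moved the EV-deficient median of all genes from 0.07 to 0.26, and 63.4% in place of 51.5% of the calls there were then higher. Of the 10 genes there, 4 were then called lower and 4 higher, since Stmn1 (-0.02, adjusted p 0.785) and Tuba8 (-0.27, adjusted p 0.2) lost their calls and Map1b gained one (0.26, adjusted p 0.0189). With a filter at 1 CPM 4 were lower and 2 higher. Averaged over both labels, 7 were lower (background 31.3%) and 2 higher (background 37.1%), with 68.4% of all genes called in either direction. Under upper-quartile scaling Stmn1 lost its averaged call (-0.09, adjusted p 0.0891).

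**Figure D1:**
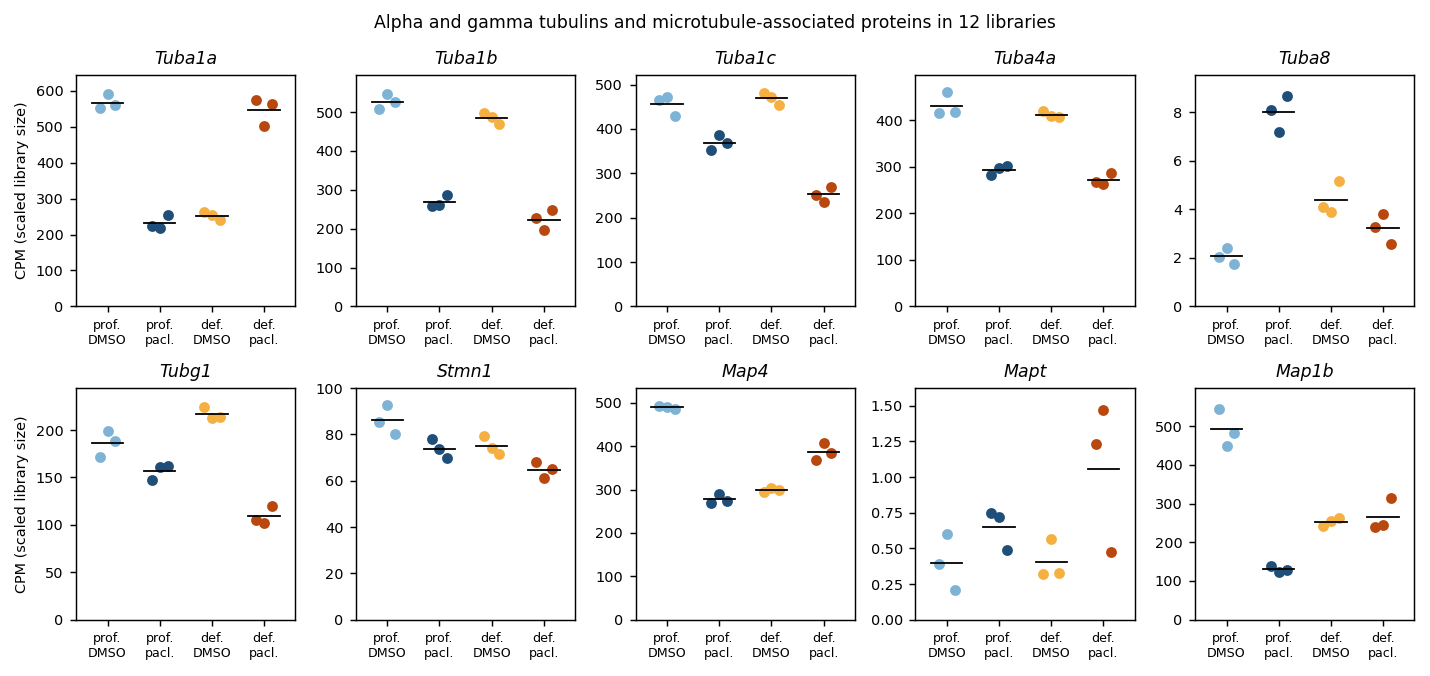
Level of each gene in CPM (vertical axis, from 0, a separate scale for each gene) in the 4 groups, with 1 point per library and a bar at the group mean. Tuba1a was high in EV-proficient DMSO and EV-deficient paclitaxel libraries, while Tuba1b, Tuba1c, Tuba4a and Tubg1 were lower in all 6 paclitaxel libraries than in any DMSO library.

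Tuba1a, the alpha-tubulin best known from developing neurons, was at 551, 590.2 and 561 CPM in the EV-proficient DMSO libraries and at 224, 219 and 254 CPM in the EV-proficient paclitaxel libraries. The EV-deficient libraries had 263, 254 and 240.3 CPM with DMSO and 576, 503 and 564 CPM with paclitaxel. The 12 libraries thus formed a high set, EV-proficient DMSO and EV-deficient paclitaxel, and a low set, with no value between 263 and 503 CPM. As labelled, the log2 fold change under paclitaxel was -1.29 ± 0.07 (SE, n = 3 per group; adjusted p 1.8e-12) with the EV-proficient label and 1.12 ± 0.07 (adjusted p 7.2e-12) with the EV-deficient label. Their difference was 2.40 ± 0.10 (adjusted p 2.8e-14). Averaged over both labels the paclitaxel effect was -0.09 ± 0.05 (adjusted p 0.115). Across the diagonal it was -0.05 (95% interval -0.18 to 0.08) for EV-deficient paclitaxel against EV-proficient DMSO and -0.12 (-0.25 to 0.01) for EV-proficient paclitaxel against EV-deficient DMSO, neither of them called. Leaving out EV-proficient paclitaxel replicate 3 moved the latter to -0.19 and the average to -0.14, both called, and leaving out EV-deficient paclitaxel replicate 1 or 3 moved the average to -0.13 or -0.12, also called.

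Tuba1b, the alpha-tubulin of most dividing cells, was at 508, 545 and 527 CPM with DMSO and at 259, 261 and 287 CPM with paclitaxel in the libraries labelled EV-proficient. In those labelled EV-deficient it was at 498, 487 and 470.3 CPM with DMSO and at 227, 196 and 247 CPM with paclitaxel. Every paclitaxel library lay below every DMSO library. The log2 fold change was -0.97 ± 0.07 with the EV-proficient label (adjusted p 2.3e-10) and -1.12 ± 0.07 with the EV-deficient label (adjusted p 1.6e-11), and -1.04 ± 0.05 on average. The difference of -0.15 ± 0.10 between the labels was not called (adjusted p 0.26), with a 95% interval of -0.35 to 0.05. Between the EV labels, Tuba1b differed by -0.12 ± 0.07 under DMSO, not called (adjusted p 0.259), although the 2 groups did not overlap. This difference was called in the fit of the compared groups alone (-0.15, adjusted p 0.0106) and without EV-deficient paclitaxel replicate 2 (-0.16, adjusted p 0.0386). Under paclitaxel it differed by -0.27 ± 0.07 (adjusted p 0.0051), a call that upper-quartile scaling lost (-0.17, adjusted p 0.0584).

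Tuba1c, the third gene of the cluster, followed the direction of Tuba1b. It was at 466, 472 and 429.8 CPM with DMSO and 352, 386 and 369 CPM with paclitaxel in the libraries labelled EV-proficient, a log2 fold change of -0.31 ± 0.06 (adjusted p 0.00024). In those labelled EV-deficient it was at 481, 472 and 453 CPM with DMSO and 252, 236 and 270.1 CPM with paclitaxel, a log2 fold change of -0.89 ± 0.06 (adjusted p 6.5e-11). The DMSO groups overlapped and the paclitaxel groups did not. The fall was larger with the EV-deficient label by 0.58 on the log2 scale (interaction -0.58 ± 0.09, adjusted p 1.5e-05). Across the diagonal Tuba1c fell by 0.85 and 0.34 on the log2 scale, and on average by 0.60, all called.

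Because reads can fall on any of these near-identical genes, the counts of Tuba1a, Tuba1b and Tuba1c were also summed and tested as 1 gene. The sum had a log2 fold change under paclitaxel of -0.83 with the EV-proficient label, -0.24 with the EV-deficient label (adjusted p 0.0019) and -0.53 on average. Upper-quartile scaling lost the EV-deficient call (-0.05, adjusted p 0.443). The difference between the labels was 0.60 (adjusted p 9.5e-06). Across the diagonal the sum fell by 0.60 and 0.47 on the log2 scale, both called. The ratio of Tuba1a to Tuba1b counts, taken within a library and so free of scaling, was 1.07 to 1.08 in the EV-proficient DMSO libraries and 0.839 to 0.887 in the EV-proficient paclitaxel libraries. It was 0.511 to 0.529 in the EV-deficient DMSO libraries and 2.28 to 2.57 in the EV-deficient paclitaxel libraries, so no 2 groups overlapped.

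Tuba4a, an alpha-tubulin gene on another chromosome than the Tuba1 cluster, was at 415, 460.2 and 418 CPM with DMSO and 282, 298 and 302 CPM with paclitaxel in the libraries labelled EV-proficient. In those labelled EV-deficient it was at 419.9, 409 and 406 CPM with DMSO and 268, 264 and 286 CPM with paclitaxel. Neither pair of groups with the same treatment was separated. The log2 fold change under paclitaxel was -0.55 ± 0.06 (adjusted p 5.2e-08) and -0.60 ± 0.06 (adjusted p 1.2e-08), and the difference of -0.04 between the labels had a 95% interval of -0.21 to 0.12. EV-label differences of -0.06 ± 0.06 under DMSO and -0.11 ± 0.06 under paclitaxel were not called (adjusted p 0.485 and 0.153). Across the diagonal Tuba4a fell by 0.66 and 0.49 on the log2 scale.

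Tuba8, an alpha-tubulin known mainly from muscle, testis and brain, was the least abundant among the alpha-tubulins of the 10 genes, with 60 to 410 counts per library. It was at 2.05, 2.42 and 1.76 CPM in the EV-proficient DMSO libraries and at 8.10, 7.19 and 8.66 CPM in the EV-proficient paclitaxel libraries. Libraries labelled EV-deficient had 4.09, 3.90 and 5.15 CPM with DMSO and 3.26, 3.81 and 2.58 CPM with paclitaxel. The order of the groups was close to the inverse of that of Tuba1a, with all 4 groups apart. The log2 fold change was 1.93 ± 0.19 with the EV-proficient label (adjusted p 1.4e-08), -0.45 ± 0.18 with the EV-deficient label (adjusted p 0.0339) and 0.74 ± 0.13 on average (adjusted p 2.9e-05). The EV-deficient call held in 15 of 21 fits. It was lost under upper-quartile scaling (-0.27, adjusted p 0.2), with a filter at 1 CPM (-0.39, adjusted p 0.0615), in the fit of the compared groups alone (-0.44, adjusted p 0.0588) and without EV-deficient DMSO replicate 3 (-0.33) or EV-deficient paclitaxel replicate 1 (-0.48) or 3 (-0.32). The difference between the labels was -2.38 ± 0.26 (adjusted p 2.1e-07). Across the diagonal Tuba8 was higher with paclitaxel by 0.62 ± 0.19 (adjusted p 0.00752), a call lost without EV-deficient paclitaxel replicate 2 (0.45, adjusted p 0.0567), and by 0.86 ± 0.18 (adjusted p 0.000246).

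Summed per kilobase, alpha-tubulin mRNA was 912 ± 33 CPM per kb (mean ± SD, n = 3) in the EV-proficient DMSO libraries and 517 ± 22 in the EV-proficient paclitaxel libraries. It was 717 ± 22 in the EV-deficient DMSO libraries and 608 ± 43 in the EV-deficient paclitaxel libraries. The lowest DMSO library, at 694 CPM per kb, lay above the highest paclitaxel library, at 641. The make-up of this pool changed with its size. With the EV-proficient label Tuba1a supplied 34.5% ± 0.3 of it under DMSO and 24.9% ± 1.2 under paclitaxel. With the EV-deficient label it supplied 19.5% ± 0.3 under DMSO and 49.9% ± 1.2 under paclitaxel. The share of Tuba1b in the same order was 30.8%, 27.8%, 36.1% and 19.5%, and that of Tuba1c 21.9%, 31.2%, 28.6% and 18.2%. Tuba4a kept to a narrower band, between 11.6% and 15.8% over all 12 libraries, and Tuba8 stayed at or below 0.721%. The leading gene was thus Tuba1a in both high groups, Tuba1c in EV-proficient paclitaxel and Tuba1b in EV-deficient DMSO libraries. Shares of the 3 Tuba1 genes carry the uncertainty of shared reads given above.

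**Figure D2:**
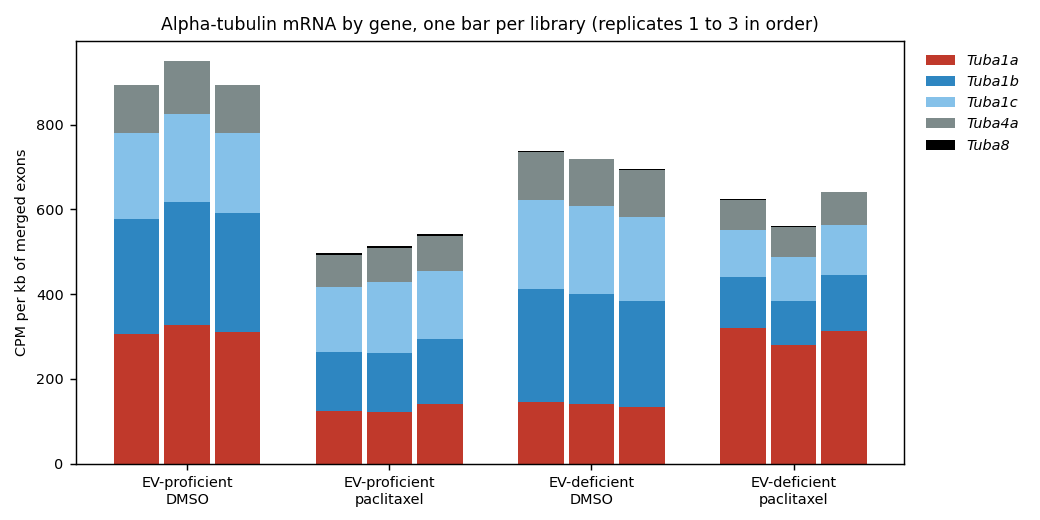
Stacked CPM per kb of the 5 alpha-tubulin genes (vertical axis, from 0), with 1 bar per library and the libraries in 4 groups of 3. Tuba1a makes up 48.8% to 51.1% of the bar in EV-deficient paclitaxel libraries and 19.2% to 19.8% in EV-deficient DMSO libraries.

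Tubg1 encodes the main gamma-tubulin of dividing cells. It was at 171, 199 and 188 CPM with DMSO and 147, 161 and 162 CPM with paclitaxel in the libraries labelled EV-proficient, a log2 fold change of -0.25 ± 0.07 (adjusted p 0.0046). In those labelled EV-deficient it was at 224, 212 and 214 CPM with DMSO and 105, 102 and 119.8 CPM with paclitaxel, a log2 fold change of -0.99 ± 0.07 (adjusted p 7.6e-11). All 6 paclitaxel libraries were below all 6 DMSO libraries, and the fall was larger with the EV-deficient label (interaction -0.75 ± 0.10, adjusted p 3.2e-06). Under DMSO it was higher with the EV-deficient label by 0.22 ± 0.07 (adjusted p 0.0251). That call was lost in 7 of 12 fits lacking a single library (0.17 to 0.23 in them), namely those without EV-deficient DMSO replicate 1, EV-deficient paclitaxel replicate 1, EV-proficient DMSO replicate 1 or 3, or any 1 EV-proficient paclitaxel library. Under paclitaxel it was lower by 0.53 on the log2 scale (-0.53 ± 0.07, adjusted p 5.5e-06). Across the diagonal Tubg1 fell by 0.77 and 0.47 on the log2 scale.

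Stmn1, stathmin, moved little. It was at 85.2, 92.8 and 80.3 CPM with DMSO and 78.1, 73.7 and 69.7 CPM with paclitaxel in the libraries labelled EV-proficient. In those labelled EV-deficient it was at 79.1, 73.9 and 71.3 CPM with DMSO and 68.2, 61.2 and 65.0 CPM with paclitaxel. Within each label the DMSO libraries lay just above the paclitaxel libraries. The log2 fold change was -0.22 ± 0.07 (adjusted p 0.0105) and -0.21 ± 0.07 (adjusted p 0.0141), and the difference between the labels, 0.01, had a 95% interval of -0.18 to 0.21. Both EV-label differences were small and called, -0.20 ± 0.07 under DMSO (adjusted p 0.0398) and -0.19 ± 0.07 under paclitaxel (adjusted p 0.0386). None of these 4 calls held throughout. The paclitaxel change with the EV-proficient label was -0.16 (adjusted p 0.0907) without EV-proficient DMSO replicate 2. With the EV-deficient label it was -0.02 under upper-quartile scaling (adjusted p 0.785), -0.14 with a filter at 1 CPM, and not called without EV-deficient DMSO replicate 1 (-0.18) or EV-deficient paclitaxel replicate 2 (-0.16). The difference under DMSO was not called without EV-proficient DMSO replicate 1 (-0.21) or 2 (-0.14) or EV-deficient DMSO replicate 2 (-0.19) or 3 (-0.16), nor with no low-count filter (-0.16, adjusted p 0.171). The difference under paclitaxel was called in 12 of 21 fits. It was not called under upper-quartile scaling (-0.094, adjusted p 0.275), median-of-ratios scaling (adjusted p 0.0652), DESeq2 (adjusted p 0.06), a filter at 1 CPM (adjusted p 0.0754) or the compared groups alone (adjusted p 0.14), nor without EV-proficient paclitaxel replicate 1 (-0.15) or 2 (-0.19) or EV-deficient paclitaxel replicate 2 (-0.14) or 3 (-0.19). Across the diagonal Stmn1 was lower by 0.41 on the log2 scale in EV-deficient paclitaxel than in EV-proficient DMSO libraries (-0.41 ± 0.07, adjusted p 3.2e-05), which held in all 21 fits, and it differed by -0.02 (95% interval -0.15 to 0.12) in the other direction.

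Map4, the structural microtubule-associated protein of most cells outside neurons, was at 493, 491 and 486 CPM in the EV-proficient DMSO libraries and at 270.0, 290.2 and 275 CPM in the EV-proficient paclitaxel libraries. In the libraries labelled EV-deficient it was at 294, 303 and 298 CPM with DMSO and at 367, 407 and 385 CPM with paclitaxel. Like Tuba1a it had its 2 highest groups in EV-proficient DMSO and EV-deficient paclitaxel, but here those 2 groups did not overlap. The log2 fold change was -0.82 ± 0.06 with the EV-proficient label (adjusted p 7.3e-11) and 0.37 ± 0.06 with the EV-deficient label (adjusted p 4.9e-06), and they differed by 1.19 ± 0.08 (adjusted p 1.0e-10). On average Map4 was lower with paclitaxel (-0.22 ± 0.04, adjusted p 3.5e-05). Across the diagonal it was lower in EV-deficient paclitaxel than in EV-proficient DMSO libraries (-0.34 ± 0.06, adjusted p 1.5e-05). The other diagonal difference, -0.10 ± 0.06, was not called (adjusted p 0.132) and became called without EV-proficient paclitaxel replicate 2 (-0.15, adjusted p 0.035).

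Map1b, a large microtubule-associated protein of growing axons, was at 544, 449.6 and 482 CPM in the EV-proficient DMSO libraries and at 139, 123 and 129 CPM in the EV-proficient paclitaxel libraries, the deepest fall among the 10 genes (-1.91 ± 0.09, adjusted p 3.9e-13). In the libraries labelled EV-deficient it was at 242, 255 and 263 CPM with DMSO and at 239, 245 and 315 CPM with paclitaxel. These 2 groups overlapped, and the change of 0.07 ± 0.09 was not called (adjusted p 0.487). It was -0.07 without EV-deficient paclitaxel replicate 3 and, under upper-quartile scaling, 0.26 and called (adjusted p 0.0189). The 2 paclitaxel effects differed by 1.99 ± 0.13 (adjusted p 5.1e-11). Across the diagonal Map1b was lower with paclitaxel by similar amounts, -0.88 ± 0.09 (adjusted p 2.0e-08) and -0.96 ± 0.09 (adjusted p 9.4e-09), and the average was -0.92 ± 0.06 (adjusted p 2.5e-11).

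Mapt, tau, was barely present, with 7 to 68 counts per library and 11 of 12 libraries at or above the count filter. It was at 0.390, 0.598 and 0.205 CPM in the EV-proficient DMSO libraries and at 0.751, 0.721 and 0.485 CPM in the EV-proficient paclitaxel libraries. Libraries labelled EV-deficient had 0.321, 0.563 and 0.329 CPM with DMSO and 1.23, 1.47 and 0.476 CPM with paclitaxel. The groups overlapped under both labels, and EV-deficient paclitaxel replicate 3 lay within the range of the DMSO libraries. The log2 fold change was 0.72 ± 0.48 (adjusted p 0.208) with the EV-proficient label and 1.38 ± 0.46 (adjusted p 0.0123) with the EV-deficient label. The latter call was lost without EV-deficient DMSO replicate 1 (1.22) or 3 (1.24) or EV-deficient paclitaxel replicate 2 (1.07). The average of both, 1.05 ± 0.33, was called (adjusted p 0.0081), the difference between the labels, 0.66 ± 0.66, was not (adjusted p 0.47), and no EV-label difference was. Of the diagonal contrasts, EV-deficient paclitaxel against EV-proficient DMSO was called at 1.38 ± 0.47 (adjusted p 0.0143) but not without EV-deficient paclitaxel replicate 1 (1.20) or 2 (1.04) or EV-proficient DMSO replicate 3 (1.07), and the other, 0.72 ± 0.47, was not (adjusted p 0.203).

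**Figure D3:**
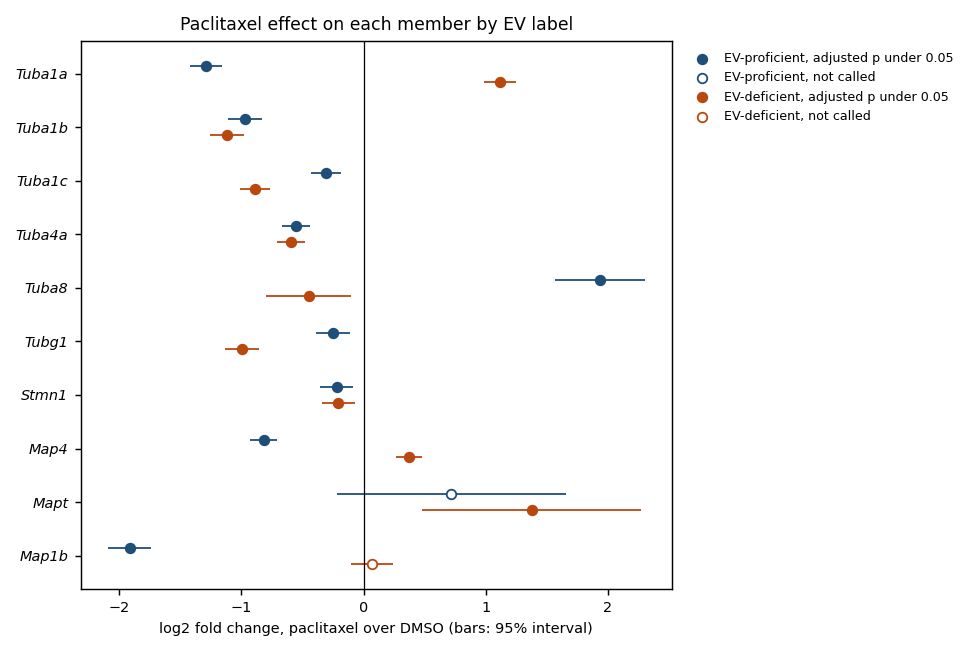
Log2 fold change of paclitaxel over DMSO for each gene (horizontal axis) with the EV-proficient label (blue) and the EV-deficient label (orange); bars span the 95% interval, and filled points have an adjusted p under 0.05. The pairs of points lie on opposite sides of 0 for Tuba1a, Tuba8 and Map4 and for Map1b, where the EV-deficient value (0.07) was not called. They are side by side for Tuba1b, Tuba4a and Stmn1.

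Between the EV labels under DMSO, 6 of the 10 genes were called, where 23.0% of all genes tested were: Tuba8 and Tubg1 were higher with the EV-deficient label (2 genes; background 12.4%) and Tuba1a, Stmn1, Map4 and Map1b lower (4 genes; background 10.6%). Under paclitaxel 8 were called, where 37.8% of all genes tested were: Tuba1a, Map4 and Map1b were higher (3 genes; background 16.0%) and Tuba1b, Tuba1c, Tuba8, Tubg1 and Stmn1 lower (5 genes; background 21.8%). Under upper-quartile scaling 3 were lower, as Tuba1b and Stmn1 lost their calls. The median difference over the 10 genes was -0.09 under DMSO and -0.15 under paclitaxel, against 0.04 and -0.00 over all genes tested. Under upper-quartile scaling 58.2% in place of 42.4% of all calls under paclitaxel were higher, and with no low-count filter 64.1% in place of 53.9% under DMSO. For Tuba1a the difference was -1.17 ± 0.07 under DMSO (adjusted p 3.3e-11) and 1.24 ± 0.07 under paclitaxel (adjusted p 1.6e-11). For Map1b it was -0.96 ± 0.09 and 1.03 ± 0.09, for Map4 -0.72 ± 0.06 and 0.47 ± 0.06, and for Tuba8 1.07 ± 0.19 and -1.31 ± 0.18, each called. Tubg1 also changed sign. Stmn1 was the gene called under both treatments with the same sign. In all, 4 of the 10 genes had one sign under both treatments, against 32.9% of all genes tested. One of the others, Tuba1c, had a difference of 0.04 ± 0.06 under DMSO that was not called (adjusted p 0.72).

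**Figure D4:**
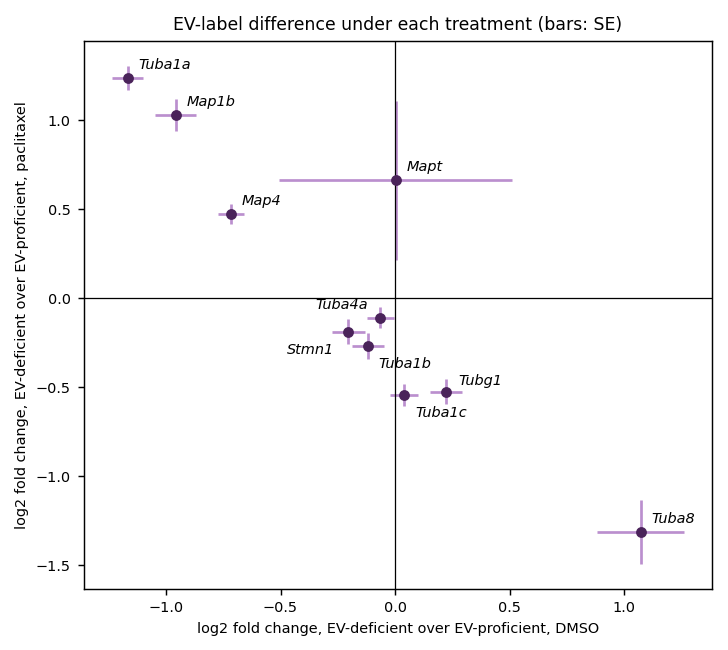
Log2 fold change of EV-deficient over EV-proficient under DMSO (horizontal axis) against that under paclitaxel (vertical axis), 1 point per gene with bars of 1 SE. Tuba1a, Map1b and Map4 lie at the upper left, with a negative difference under DMSO and a positive one under paclitaxel, and Tuba8, Tubg1 and Tuba1c at the lower right.

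The interaction, which asks whether the paclitaxel effect differed between EV labels, was called for 6 of the 10 genes, where 40.7% of all genes tested were. It was positive for Tuba1a, Map1b and Map4 (3 genes; background 16.9%) and negative for Tuba8, Tubg1 and Tuba1c (3 genes; background 23.8%). Of all interaction calls 41.4% were positive, or 53.9% under upper-quartile scaling. The contrasts across the diagonal gave fewer differences of sign. In EV-deficient paclitaxel against EV-proficient DMSO libraries 9 genes were called, 7 lower and 2 higher, where 61.4% of all genes tested were (28.8% lower and 32.6% higher). Without EV-deficient paclitaxel replicate 2 neither higher call held (Tuba8 0.45, adjusted p 0.0567, and Mapt 1.04, adjusted p 0.0838), and 1 held without EV-deficient paclitaxel replicate 1 or EV-proficient DMSO replicate 3. Under upper-quartile scaling 64.3% in place of 53.1% of the calls were higher. In EV-proficient paclitaxel against EV-deficient DMSO libraries 6 were called, 5 lower and 1 higher, where 56.9% of all genes tested were (26.8% lower and 30.1% higher). Tuba1b, Tuba1c, Tuba4a, Tubg1 and Map1b were lower and Tuba8 higher with paclitaxel in both, and Tuba1a was called in neither.

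Per kilobase, Tuba1a led in the EV-proficient DMSO libraries with 315 ± 11 CPM per kb, followed by Tuba1b at 281 ± 10, Tuba1c at 199 ± 10 and Tuba4a at 116 ± 7. Tubg1 was at 82.1 ± 6.2, Stmn1 at 44.8 ± 3.3, Map4 at 32.4 ± 0.2 and Map1b at 31.1 ± 3.0, the last 2 overlapping. Tuba8 was at 0.916 ± 0.146 and Mapt at 0.053 ± 0.026. These levels use the length of all exons merged, which is long for Map4 and Map1b. With the longest transcript instead, the mean level over all libraries was 59.6 CPM per kb in place of 24.0 for Map4, 70.6 in place of 39.0 for Stmn1 and 24.2 in place of 18.0 for Map1b.

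Across the 12 libraries the members fell into patterns that can be described by Pearson's r of their log2 CPM, which here mostly reflects the 4 groups the libraries share. Tuba1b went with Tuba4a (r = 0.99), Tuba1c (0.91) and Tubg1 (0.89), and Tuba1c with Tubg1 (0.97). Tuba1a went with Map4 (0.91) and Map1b (0.76) and hardly with Tuba1b (0.01). Tuba8 ran opposite to Map1b (-0.95), Map4 (-0.90) and Tuba1a (-0.85). Outside the 10 genes, among about 10261 others with a mean of at least 5 CPM, the closest patterns to Tuba1a were those of Klf6, a zinc-finger transcription factor (r = 0.995), and Hoxb9 (0.99). The closest to Tuba1b was Tubgcp3, a subunit of the gamma-tubulin ring complex (0.996), before Ciapin1 (0.996). Src (0.99) and Kif18b, a microtubule-depolymerising kinesin (0.99), came closest to Tuba1c, Pip4k2b (0.998) and Samm50 (0.996) to Tuba4a, and Map2k2 (0.995) and Phgdh (0.99) to Tubg1. Tuba8 was nearest to Map7, a protein that stabilises microtubules and recruits kinesin-1 (0.98), and Col8a1 (0.98). Map4 was nearest to Adap1 and Stx1a (0.99 each), Stmn1 to Kdm1b (0.91) and Sh3bgrl2 (0.90), and Mapt to Zfp958 (0.92) and Zkscan14 (0.91). Erc1 was among the closest to Map1b (0.98). Which gene came closest depended on the measure. By Spearman's rank correlation Src ranked 866 and Kif18b 374 for Tuba1c, Ciapin1 97 for Tuba1b and Klf6 52 for Tuba1a. Tubgcp3 ranked 5 for Tuba1b, Map2k2 6 for Tubg1 and Erc1 4 for Map1b.

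Other genes of the same machinery were taken from lists by function. Over all genes tested, 27.1% were called lower and 31.1% higher under paclitaxel with the EV-proficient label. With the EV-deficient label the shares were 30.5% and 32.4%. Diagonal values are given for EV-deficient paclitaxel against EV-proficient DMSO first and for EV-proficient paclitaxel against EV-deficient DMSO second. Of the 4 tested among 6 further alpha-, gamma-, delta- and epsilon-tubulin genes, none was called with the EV-proficient label (Tubg2 at 0.34, adjusted p 0.0547, was called there under upper-quartile scaling, with a filter at 1 CPM, with a replicate block and with the compared groups alone), and with the EV-deficient label 2 rose and 1 fell under paclitaxel. Tubg2, the second gamma-tubulin, rose there by 0.89 ± 0.15 (adjusted p 1.9e-05), opposite to Tubg1, and Tubd1, delta-tubulin, fell by 0.42 on the log2 scale (-0.42 ± 0.13, adjusted p 0.0084). Across the diagonal Tubg2 was higher in both (0.60 and 0.63, called), and Tubd1 was at -0.17, not called, and -0.32, called. In the list of the gamma-tubulin ring complex and its anchors, 6 of 11 genes fell and 3 rose with the EV-proficient label, and 7 fell and 1 rose with the EV-deficient label. Pcnt, pericentrin, which anchors the ring complex at the centrosome, had the lowest change under both labels, -0.69 ± 0.09 and -1.18 ± 0.09 (adjusted p 1.7e-06 and 4.8e-10). The other named genes of the list went opposite ways with the labels. Mzt1, a small subunit of the complex, was at 0.87 ± 0.09 with the EV-proficient label (adjusted p 5.3e-08) and at -0.34 with the EV-deficient label (adjusted p 0.0028), and at 0.18 (not called) and 0.36 (called) across the diagonal. Akap9, a Golgi and centrosome anchor, was at -0.62 (adjusted p 2.5e-06) and 0.24 ± 0.09 (adjusted p 0.017), and at -0.14 (not called) and -0.24 (called) across the diagonal. Pcnt was lower on both diagonals, by 1.05 and 0.83 on the log2 scale (-1.05 and -0.83, called).

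The list of tubulin folding factors and genes of mRNA autoregulation had 9 of 23 lower and 6 higher with the EV-proficient label, and 17 lower and 3 higher with the EV-deficient label. Over all genes tested 27.1% were called lower and 31.1% higher with the EV-proficient label, and 30.5% and 32.4% with the EV-deficient label. Its medians were -0.11 and -0.38, against 0.05 and 0.07 over all genes. Cct6a and Cct3, subunits of the chaperonin that folds tubulin, had the lowest changes, Cct6a at -1.02 ± 0.07 with the EV-proficient label (adjusted p 2.8e-11) and Cct3 at -1.18 ± 0.06 with the EV-deficient label (adjusted p 5.4e-13). Scaper, which links TTC5 to the deadenylase in tubulin mRNA decay, was the highest under both labels, at 1.21 ± 0.12 (adjusted p 3.1e-08) and 1.23 ± 0.12 (adjusted p 1.5e-08). Ttc5 itself rose by 0.38 ± 0.08 (adjusted p 0.00043) and 0.34 ± 0.08 (adjusted p 0.00099). Across the diagonal all 4 kept their direction and call: Cct6a -0.64 and -0.62, Cct3 -1.04 and -1.01, Scaper 1.11 and 1.34, and Ttc5 0.30 and 0.43.

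Among other stathmins and structural microtubule-associated proteins, 10 of 24 tested genes rose and 7 fell with the EV-proficient label, and 9 rose and 8 fell with the EV-deficient label. Over all genes tested 31.1% rose and 27.1% fell with the EV-proficient label, and 32.4% and 30.5% with the EV-deficient label. Stmn2, the stathmin of growing axons, was at -2.22 ± 0.17 with the EV-proficient label (adjusted p 3.6e-10) and 3.11 ± 0.17 with the EV-deficient label (adjusted p 1.4e-12). Across the diagonal it was at 0.62 (adjusted p 0.0012) and 0.27, not called (adjusted p 0.22), and on average at 0.44 (adjusted p 0.0022). Dclk1, a doublecortin-like kinase that binds microtubules, was the highest with the EV-proficient label (2.17 ± 0.12, adjusted p 5.3e-12), and was higher on both diagonals (1.74 and 1.87, called). Eml3, which binds spindle microtubules, was the lowest with the EV-deficient label (-0.75 ± 0.07, adjusted p 2.5e-09) but higher with the EV-proficient label (0.47, adjusted p 3.1e-06), and at -0.36 (called) and 0.08 (not called) across the diagonal. Of 22 plus-end, minus-end and severing proteins, 12 fell and 5 rose, and 11 fell and 5 rose. Fignl1, of the family of severing ATPases, was the lowest under both labels, at -0.90 ± 0.12 and -1.28 ± 0.12 (adjusted p 1.9e-06 and 8.6e-09). Tacc1 was the highest with the EV-proficient label (1.32 ± 0.10, adjusted p 3.1e-10) and Clip2, a plus-end binding protein, with the EV-deficient label (1.75 ± 0.09, adjusted p 2.6e-13), while Clip2 with the EV-proficient label was at 0.01 (adjusted p 0.897). Across the diagonal Fignl1 was at -1.34 and -0.83 and Clip2 at 0.64 and 1.12, all called. Tacc1 was called higher in both diagonal contrasts and was at 0.96 on average (adjusted p 6.6e-11).

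Enzymes that modify tubulin went both ways, with 6 of 17 tested genes higher and 7 lower with the EV-proficient label, and 5 higher and 6 lower with the EV-deficient label. Over all genes tested 31.1% were higher and 27.1% lower with the EV-proficient label, and 32.4% and 30.5% with the EV-deficient label. Vash2, which removes the last tyrosine of alpha-tubulin, rose by 1.69 ± 0.11 with the EV-proficient label (adjusted p 2.3e-11) and fell with the EV-deficient label (-0.48, adjusted p 0.00034); across the diagonal it was higher in both (0.73 and 0.49, called). Tpgs2, a subunit of a polyglutamylase complex, was the lowest with the EV-proficient label (-1.02 ± 0.11, adjusted p 4.2e-08). With the EV-deficient label Atat1, the acetyltransferase of alpha-tubulin, was the highest (0.98 ± 0.17, adjusted p 3.2e-05) and Ttll12 the lowest (-1.31 ± 0.07, adjusted p 1.5e-12). Across the diagonal Tpgs2 was at -0.56 and -0.65, Atat1 at 1.37 and 1.17 and Ttll12 at -1.14 and -0.91, all called. Of 14 kinases that phosphorylate tau, MAP4 or stathmin, 8 rose and 3 fell with the EV-proficient label, and 4 rose and 9 fell with the EV-deficient label. Mapk13, a p38 kinase, was at 1.47 ± 0.12 with the EV-proficient label (adjusted p 7.1e-10) and -0.85 ± 0.11 with the EV-deficient label (adjusted p 1.1e-06). Across the diagonal it was at 0.25, not called (adjusted p 0.0748), and 0.37 (adjusted p 0.0070), and on average at 0.31 (adjusted p 0.0019). Mark2, which detaches tau and MAP4 from microtubules, was the lowest with the EV-proficient label (-0.35 ± 0.06, adjusted p 2.1e-05), and Camk2d the highest with the EV-deficient label (0.61 ± 0.08, adjusted p 6.4e-07); both kept direction and call across the diagonal (-0.35 and -0.22 for Mark2, 0.60 and 0.66 for Camk2d).

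Of 10 proliferation markers, 7 fell and none rose with the EV-proficient label, and 10 fell with the EV-deficient label. Over all genes tested 27.1% and 30.5% were called lower with these labels, and 31.3% averaged over the labels. The lowest were Tyms, thymidylate synthase, at -1.54 ± 0.13 with the EV-proficient label (adjusted p 1.5e-09) and Mcm5, of the replicative helicase, at -2.25 ± 0.09 with the EV-deficient label (adjusted p 3.4e-14). Both were also lower across the diagonal, Tyms at -1.70 and -1.71 and Mcm5 at -1.93 and -1.49, and averaged over the labels all 10 markers fell. Several members are themselves higher in dividing cells, Tubg1 and Stmn1 among them. The part of lower proliferation in their fall was not tested.

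**Figure D5:**
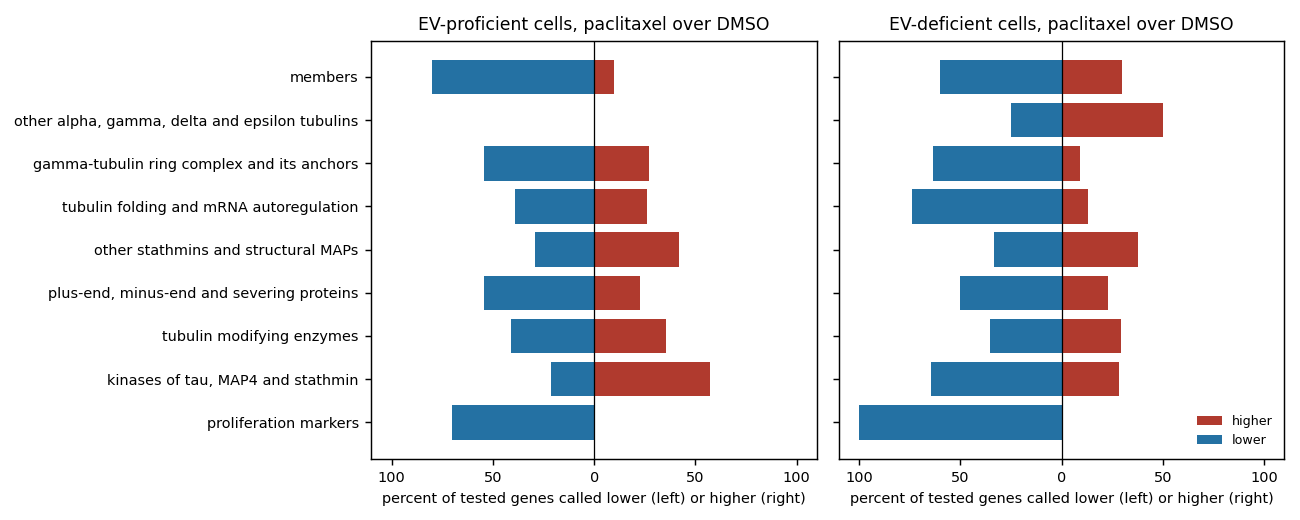
Percent of the tested genes of each list called lower (blue, left of 0) or higher (red, right of 0) under paclitaxel, with the EV-proficient label in the left panel and the EV-deficient label in the right panel. Over all genes tested the percentages were 27.1 lower and 31.1 higher on the left and 30.5 lower and 32.4 higher on the right.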

How the data were processed

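The authors deposited whole read counts per gene, not normalized, for 12 libraries of stranded poly(A)+ RNA, per the labels' protocols. STAR 2.5.0a and build GRCm38 are named in the submitters' processing notes. The counting program, its use of strand and the annotation release are not given in the sources used here. The table had 55423 rows: 55421 genes (99.7% of the IDs are in GENCODE M21), 3995 of them without a symbol, which held at most 0.102% of a library's counts, and 2 added rows (gfp, 0 counts in all libraries, where 3 counts would be 0.049 to 0.121 CPM, and dngfr), neither of them used in totals or tests. There were 0 columns of other samples.

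Counts were tested with edgeR 4.0.16 in R 4.3.3: TMM scaling, filterByExpr (minimum count 10), quasi-likelihood F tests on 4 group means fitted to all 12 libraries (common dispersion 0.0096) and Benjamini-Hochberg adjustment over 18108 genes. SE is the log2 fold change divided by the root of F. In data simulated for paclitaxel against DMSO with the EV-proficient label, on 17345 genes, it recovered 77.3% of 198 changed genes with 8 false calls. The simulation changed few genes and gave every gene the same dispersion, whereas 58.2% of genes were called in the real comparison. These figures therefore do not measure the performance on the real libraries. Replicates of a group differed by more than sampling noise (chi-square per degree of freedom 4.34 to 31.4). Reads without molecular identifiers make counting floors cover counting error only. Sequences, lengths and coordinates come from GENCODE M21 and RefSeq (Biopython 1.88). The genes and lists were chosen with earlier results of these data known. Named list genes are the highest and the lowest called log2 fold change per list and EV label, with a mean of at least 5 CPM, plus Ttc5. Likeness is the highest Pearson r of log2 CPM (prior count 2). Alternatives were other scalings (median of ratios, upper quartile), other low-count filters, DESeq2 1.42.0, limma 3.58.1 (voom), the compared groups alone, a replicate block, the Tuba1 sum, transcript length and leaving out each library. One sequence and the values of some list and likeness genes are not reported here.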

Additional observations from a re-analysis of the deposited data

Results flagged for a closer look

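For 6 of the 10 genes the paclitaxel effects with the 2 EV labels differed by the interaction test, which 40.7% of all genes tested passed, and the EV labels behind that difference are the ones that cross in the dngfr row. The differences on the log2 scale, EV-deficient minus EV-proficient, were 2.40 for Tuba1a, 1.99 for Map1b, 1.19 for Map4, -0.58 for Tuba1c, -0.75 for Tubg1 and -2.38 for Tuba8. For the summed counts of the Tuba1 genes the difference was 0.60.

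Among the genes named from the lists, the same test was passed with differences of 5.33 for Stmn2, 1.74 for Clip2, 0.86 for Akap9, 0.82 for Tpgs2, 0.78 for Cct6a and 0.54 for Tubg2. Negative differences were -2.33 for Mapk13, -2.17 for Vash2, -1.22 for Eml3, -1.21 for Mzt1 and -1.08 for Mcm5. Smaller ones were -0.74 for Dclk1, -0.73 for Tacc1, -0.57 for Ttll12, -0.49 for Pcnt and -0.30 for Cct3. All of these differences rest on the EV labels as given.

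In a row outside the gene comparisons, dngfr averaged 10.9 CPM in the EV-deficient paclitaxel libraries and 2.15 CPM in their DMSO controls, the reverse of the libraries labelled EV-proficient (3.24 and 8.99 CPM).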

How the results depend on the processing

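Of 612 results for single genes under settings that keep all libraries, 585 kept direction and call, 13 lost the call, 2 gained it and 12 changed sign; with 1 library left out, the numbers were 901, 28, 6 and 25 of 960. Upper-quartile scaling shifted the median of all genes by over 0.1 for paclitaxel with the EV-deficient label (0.07 to 0.26), the average (0.07 to 0.19), the interaction (-0.04 to 0.08) and EV-deficient paclitaxel against EV-proficient DMSO (0.10 to 0.25). Under that scaling 3 genes in place of 5 were lower between EV labels under paclitaxel, the Tuba1 sum with the EV-deficient label was -0.052, and uncalled values changed sign: Tuba1a average 0.037 and diagonal 0.11, Tuba4a interaction 0.078, Stmn1 diagonal 0.072, Mapt between EV labels under DMSO -0.018. With at least 1 CPM in 3 libraries, which leaves Mapt out, 1 gene in place of 2 was higher on average and in EV-deficient paclitaxel against EV-proficient DMSO; the Tuba4a interaction was 0.0067, the Stmn1 diagonal 0.0064 and the Tuba1a diagonal 0.0030. Other uncalled values near 0 changed sign: the Stmn1 interaction with no filter (-0.052), Clip2 with the EV-proficient label (-0.0097 with median-of-ratios scaling, -0.010 with DESeq2) and Mapt between EV labels under DMSO (-0.018 with median-of-ratios scaling, -0.014 with DESeq2, -0.031 with the compared groups alone). The Tuba1 sum in place of a single gene gave -0.24 for Tuba1a with the EV-deficient label, 0.23 for Tuba1b and Tuba1c between EV labels under paclitaxel, 0.60 for their interactions and -0.36 for Tuba1c under DMSO. With 1 library left out the ranges were -0.30 to 0.42 for Mapt and -0.00093 to 0.072 for Tuba1c between EV labels under DMSO, -0.059 to 0.10 for the Stmn1 and -0.11 to 0.028 for the Tuba4a interaction, -0.066 to 0.022 for the Stmn1 diagonal, -0.068 to 0.032 for Clip2, and -0.073 to 0.14 for Map1b with the EV-deficient label. The count of genes higher was 1 to 2 between EV labels under DMSO and 0 to 2 in EV-deficient paclitaxel against EV-proficient DMSO, where 0 came without EV-deficient paclitaxel replicate 2. With the longest transcript as length, levels over all libraries in CPM per kb were 216 in place of 200.5 for Tuba1b, 195 in place of 169 for Tuba1c, 124 in place of 95.2 for Tuba4a, 92.8 in place of 73.8 for Tubg1, 70.6 for Stmn1, 59.6 for Map4 and 24.2 for Map1b. The cause of these moves was not tested, except that a filter or length acts by its construction. Replicate numbers came from the titles and named no shared culture; deviations of same-numbered libraries correlated at -0.081 to 0.097 over 18 pairs, 0 of them over 0.1, and 4 of 12 libraries correlated best with their own number. A replicate block changed no call among the 10 genes (8 lower and 1 higher with the EV-proficient label) but gave Tubg2 a call with that label, and moved the calls over all genes there from 10538 to 10520. Depth limits Mapt, at 7 to 68 counts.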
